A study of Homo sapiens with 12 samples.

Results

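The genes described here are 10 regulators of the integrated stress response, chosen by name: ATF4, CEBPB, CEBPG, DDIT3 (which encodes CHOP), ATF3, ATF5, NUPR1, TRIB3, PPP1R15A and CHAC1. They and the other gene lists below were chosen with earlier results of these data known. Their counts beside the shares over all genes are therefore descriptions and not unbiased tests. All 10 were found among the 23686 genes of the deposited expression table, and all 10 were among the 13956 genes kept by the filter on low values, a level of at least 1 TPM in at least 2 of 12 libraries. TPM is a read share scaled to gene length and to the library total, so levels of different genes can be set side by side. RNA was sequenced from 2 human lines, MDA-MB-231, of breast cancer origin and grown in DMEM, and HCT116, of colon cancer origin and grown in a medium the labels spell MyCoy 5a. Each line had 3 groups of 2 libraries: IgG alone, IgG with H2O2, and anti-Hsp60N, an antibody, with H2O2. H2O2 was given at 100 µM for 8 h. Every group had an antibody, either IgG or anti-Hsp60N, and no group had anti-Hsp60N without H2O2. Each line stands for itself alone, and line and medium differ together. The design sets H2O2 against IgG, and the antibody against IgG with H2O2 present in both.

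The integrated stress response begins with kinases that phosphorylate the translation factor eIF2 on its alpha subunit, which slows most protein synthesis while the ATF4 mRNA is translated more. ATF4 protein pairs with other basic leucine zipper factors, the C/EBP proteins among them, and binds composite C/EBP-ATF elements near genes of amino acid supply, redox balance and stress signalling. Among the genes it controls are factors of a later tier (CHOP, ATF3, ATF5) and brakes on the response itself, the phosphatase subunit encoded by PPP1R15A and the pseudokinase encoded by TRIB3. RNA levels show neither eIF2 phosphorylation nor ATF4 protein.

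Promoter letters of the members were read because ATF4 and its partners act through short DNA elements. The 250 bases before each RefSeq gene start on GRCh38.p14 were searched, and these windows were at hand for 9 of the 10 genes. The letters of the C/EBP-ATF element, TGATGNAA on either strand, were present in windows of 3 of these 9, ATF3, CHAC1 and CEBPG, and in windows of 3.89% of all 27305 genes. Some genes have several starts, and the 9 had 18 windows. Counted by window, 3.14% of all 35116 held the letters. ATF3 and CEBPG each also had a window at another start without them. The cyclic AMP response element, TGACGTCA, which reads the same on both strands, was present for PPP1R15A alone of the 9, and for 2.03% of genes. Neither the endoplasmic reticulum stress element (ERSE; CCAAT and CCACG with 9 bases between them, 0.0916% of genes) nor the C/EBP palindrome TTGCGCAA (0.146%) was found in the 9. The 4 stretches with a match are shown 5′ to 3′ with the matching letters in capitals. For ATF3, CEBPG and PPP1R15A they hold the unbroken run around the match that lies outside annotated exons, and for CHAC1 only the 30 bases around the match, which lies in an annotated exon.
ATF3, chr1:212565157-212565333, plus strand: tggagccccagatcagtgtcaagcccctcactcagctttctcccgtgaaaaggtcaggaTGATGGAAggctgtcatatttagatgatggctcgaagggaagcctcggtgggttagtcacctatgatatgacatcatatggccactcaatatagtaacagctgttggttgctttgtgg
CHAC1, chr15:40953251-40953280, plus strand: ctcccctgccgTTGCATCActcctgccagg
CEBPG, chr19:33373896-33374112, plus strand: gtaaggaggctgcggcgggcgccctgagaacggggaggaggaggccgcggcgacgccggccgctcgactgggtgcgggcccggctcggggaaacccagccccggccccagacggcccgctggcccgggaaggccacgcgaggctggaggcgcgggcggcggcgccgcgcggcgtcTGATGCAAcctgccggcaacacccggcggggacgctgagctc
PPP1R15A, chr19:48872171-48872391, plus strand: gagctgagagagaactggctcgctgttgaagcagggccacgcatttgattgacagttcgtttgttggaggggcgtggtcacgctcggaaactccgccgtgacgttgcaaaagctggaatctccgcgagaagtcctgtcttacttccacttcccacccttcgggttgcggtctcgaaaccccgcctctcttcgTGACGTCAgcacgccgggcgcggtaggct
The matches began 191 bases before the gene start of their window in ATF3, 209 in CHAC1, 42 in CEBPG and 58 in PPP1R15A. CHAC1 has the element on the opposite strand, read as TTNCATCA. A match describes letters and does not show that a factor bound there.

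Across genes, the correlation was 0.994 to 0.996 between replicate libraries (6 pairs), 0.985 to 0.995 between treatments within a line (24 pairs), and 0.787 to 0.796 between lines (36 pairs). A library had 12411 to 12653 genes at 1 TPM or more. TPM keeps no read depth, so depth is unknown and no counting interval could be given. The 9 epithelial markers summed to 6119 to 6436 TPM in HCT116 and 1848 to 2094 TPM in MDA-MB-231, and the 7 mesenchymal markers summed to 355 to 467 TPM in HCT116 and 3640 to 4144 TPM in MDA-MB-231, the order known for these lines. Under IgG, 8 of the 9 epithelial markers were called higher in HCT116, while CLDN4 was lower there (74.1 against 122 TPM). Most of the mesenchymal sum of HCT116 under IgG was CAV1, at 301 TPM. PTPRC, CD3E and ITGAM, which define blood cells, were at or near 0, and CD68, a lysosomal protein also made outside blood cells, had group means of 184 to 196 TPM in MDA-MB-231 and 20.3 to 24.2 TPM in HCT116. The 6 fibroblast and endothelial markers summed to 6.06 to 11.3 TPM. The labels do not tell whether replicates are separate cultures; p-values therefore measure the spread between these libraries, which may be technical.

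Under H2O2, 9 of the 10 regulators rose in HCT116 and 3 of the 10 rose in MDA-MB-231, and none fell in either line. In HCT116 the median change of the 10 was 1.61 on the log2(TPM + 1) scale, and the changes ran from 0.29 for ATF5 to 3.4 for CHAC1. In MDA-MB-231 the median change was 0.22 and the range 0.04 to 0.36. Over all genes kept, the median was -0.010 in HCT116 and 0.027 in MDA-MB-231. The test was limma on log2(TPM + 1) with Benjamini-Hochberg adjustment over all genes kept, and a gene was called at an adjusted p under 0.05. By this rule 15.4% of all genes passed as higher in HCT116, while 17.5% passed as lower. In MDA-MB-231 the shares were 1.3% higher, 1.36% lower. At an unadjusted p under 0.05, 5 of the 10 regulators were higher and 0 lower in MDA-MB-231, beside 10.6% and 6.05% of all genes. Where groups are said below not to overlap, this only describes their libraries. How many of all genes do the same was not computed. In RNA from a whole culture, fewer cells carrying a transcript and less of it per cell cannot be told apart.

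**Figure D1:**
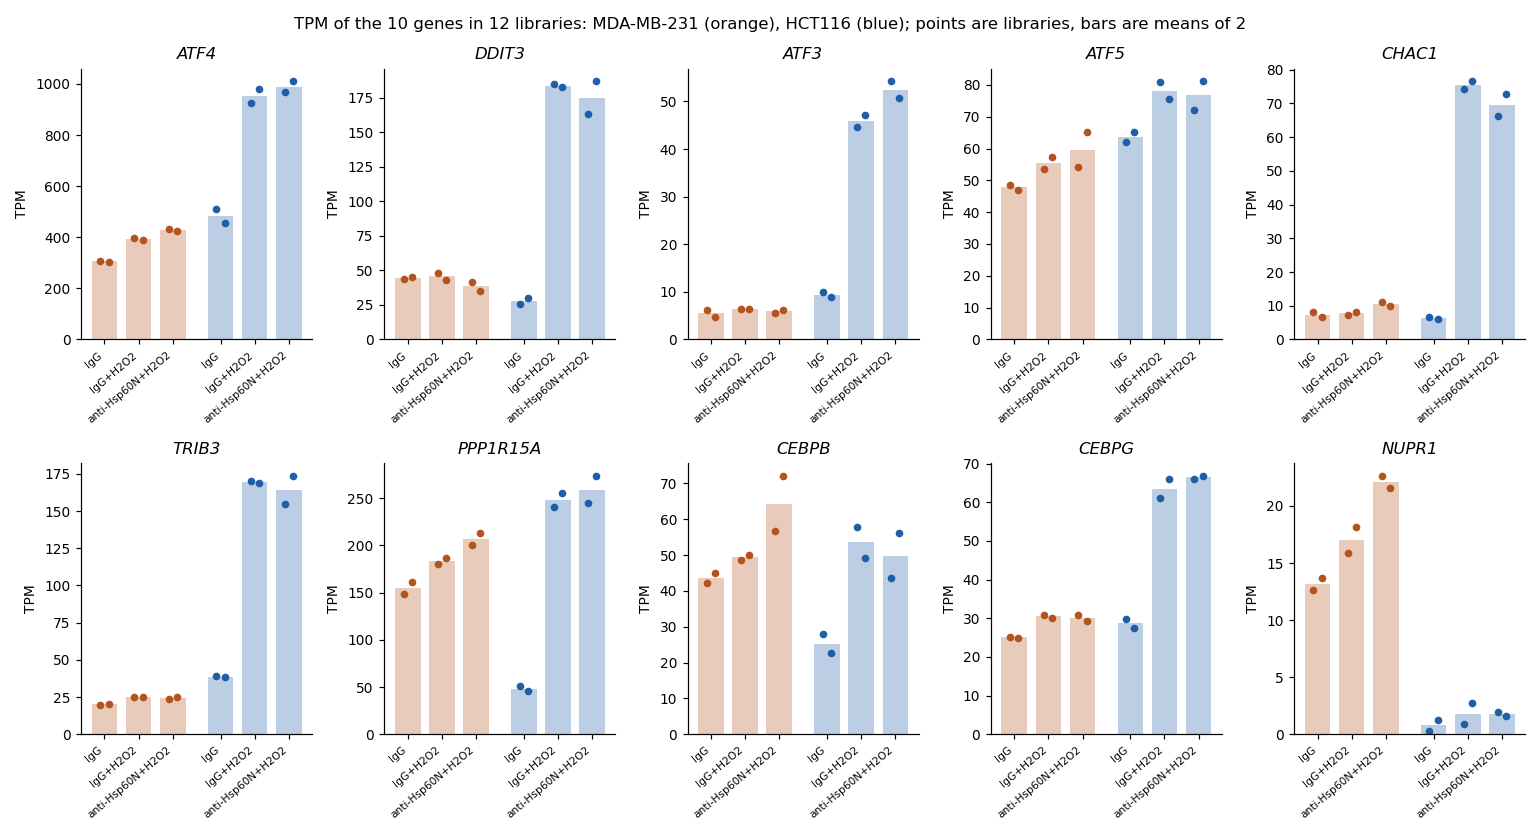
TPM (vertical axis, linear, from 0) of the 10 genes in the 6 groups, with MDA-MB-231 in orange and HCT116 in blue. Points are single libraries and bars are means of 2 libraries. In HCT116 the bars under H2O2 stand well above IgG for CHAC1, DDIT3, PPP1R15A, ATF3 and TRIB3, while the MDA-MB-231 bars for CHAC1 and DDIT3 under IgG and under IgG with H2O2 are nearly level.

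ATF4, the transcription factor at the centre of the response, was the most abundant of the 10 transcripts in every group. In HCT116 it measured 509 and 457 TPM under IgG and 925 and 979 TPM under IgG with H2O2, with no overlap. It rose by 0.98 on the log2 scale (SE 0.05, adjusted p = 5.502e-07), a ratio of mean TPM of 1.97. In MDA-MB-231 it measured 306 and 304 TPM under IgG and 396 and 389.8 TPM under H2O2, again with no overlap. The rise there was smaller, 0.36 (SE 0.05, adjusted p = 0.004969), a ratio of 1.29. Without replicate 1 of the H2O2 group the adjusted p in MDA-MB-231 was 0.05998. ATF4 has processed pseudogenes, which share sequence with it, so its level is uncertain where the counting split reads.

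CEBPG and CEBPB encode C/EBP proteins that pair with ATF4. CEBPG measured 29.9 and 27.6 TPM under IgG and 61.0 and 66.1 TPM under H2O2 in HCT116, and 25.2 and 25.0 TPM against 30.8 and 30.2 TPM in MDA-MB-231. The groups were apart in both lines, with a rise of 1.12 (SE 0.06, adjusted p = 4.6e-07) in HCT116 and 0.27 (SE 0.06, adjusted p = 0.0385) in MDA-MB-231. The MDA-MB-231 call was lost in 11 of 21 alternative settings, among them median-of-ratios scaling (adjusted p = 0.07286), and with any single library of its groups left out. CEBPB, also a mediator of inflammatory gene expression, measured 27.9 and 22.8 TPM under IgG and 57.8 and 49.3 TPM under H2O2 in HCT116, and 42.2 and 45.1 TPM against 48.8 and 50.2 TPM in MDA-MB-231. No values overlapped in either line, but only the HCT116 difference passed, at 1.05 (SE 0.14, adjusted p = 0.0003777). In MDA-MB-231 it was 0.18 (adjusted p = 0.5893). CEBPB overlaps an antisense gene, and whether the counting used strand is not given in the labels, so reads of the pair cannot be told apart.

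DDIT3 encodes CHOP, a factor linked to cell death under prolonged stress. It measured 26.0 and 29.6 TPM under IgG and 185 and 182 TPM under H2O2 in HCT116, far apart. In MDA-MB-231 it measured 43.5 and 45.1 TPM under IgG and 48.2 and 43.2 TPM under H2O2, which overlap. DDIT3 rose by 2.68 (95% interval 2.47 to 2.89, adjusted p = 2.192e-08) in HCT116, a ratio of 6.61. The MDA-MB-231 change was 0.04 (95% interval -0.17 to 0.25, adjusted p = 0.8906). The upper bound of 0.25 lies far below the lower bound of 2.47 in HCT116.

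ATF3 is a stress-inducible factor of the same bZIP class. In HCT116 it measured 9.89 and 8.93 TPM under IgG and 44.5 and 47.1 TPM under H2O2. It rose by 2.17 (95% interval 1.95 to 2.39, adjusted p = 1.554e-07), a ratio of 4.87. In MDA-MB-231 its values were 6.18 and 4.78 TPM against 6.34 and 6.43 TPM, close but without overlap, and the difference of 0.20 did not pass (adjusted p = 0.3603).

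ATF5, a bZIP factor known for its part in the mitochondrial stress response, showed small differences in both lines. It measured 62.0 and 65.2 TPM under IgG and 80.9 and 75.4 TPM under H2O2 in HCT116, and 48.7 and 46.9 TPM against 53.7 and 57.3 TPM in MDA-MB-231. The groups did not overlap in either line. The HCT116 rise of 0.29 (SE 0.09, adjusted p = 0.02285) passed, and the MDA-MB-231 difference of 0.21 did not (adjusted p = 0.2432). The HCT116 call did not hold without replicate 1 of IgG (adjusted p = 0.09961) or of H2O2 (adjusted p = 0.1297), nor with the line fitted alone (adjusted p = 0.05323).

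NUPR1 encodes a small stress-induced chromatin protein. Its HCT116 values were near the filter, 0.29 and 1.27 TPM under IgG and 0.87 and 2.73 TPM under H2O2, and they overlap. In MDA-MB-231 it measured 12.7 and 13.7 TPM against 15.9 and 18.1 TPM, without overlap. Neither difference passed, at 0.63 (95% interval -0.03 to 1.28, adjusted p = 0.1298) in HCT116 and 0.35 (95% interval -0.31 to 1.0, adjusted p = 0.6254) in MDA-MB-231. The HCT116 difference hung on single libraries. It was 1.12 without replicate 1 of H2O2 and 1.03 without replicate 2 of IgG, and over all 22 alternatives it ran from 0.13 to 1.18.

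CHAC1 encodes an enzyme that breaks down glutathione. It measured 6.57 and 5.92 TPM under IgG and 74.3 and 76.5 TPM under H2O2 in HCT116, the widest relative gap of the 10. The rise was 3.4 (95% interval 3.19 to 3.61, adjusted p = 3.149e-09), a ratio of 12.1, and CHAC1 ranked 4 of 13956 genes by log2 change. In MDA-MB-231 it measured 8.05 and 6.62 TPM under IgG and 7.31 and 8.14 TPM under H2O2. These values overlap, and the change was 0.07 (95% interval -0.14 to 0.28, adjusted p = 0.7879).

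TRIB3 and PPP1R15A are the brakes of the response. TRIB3 measured 39.1 and 38.3 TPM under IgG and 170.2 and 169 TPM under H2O2 in HCT116, and 20.0 and 20.5 TPM against 25.3 and 24.8 TPM in MDA-MB-231. It rose without overlap in both lines, by 2.1 (SE 0.06, adjusted p = 2.951e-09) and by 0.29 (SE 0.06, adjusted p = 0.02618). The MDA-MB-231 call was lost with any single library of its groups left out (adjusted p 0.07855 to 0.1682), with the line fitted alone (0.0966) and without the variance trend (0.05268). PPP1R15A, also named GADD34, measured 50.6 and 45.6 TPM under IgG and 241 and 255 TPM under H2O2 in HCT116. It rose by 2.34 (95% interval 2.19 to 2.50, adjusted p = 5.116e-09), a ratio of 5.15. In MDA-MB-231 it stood at 149 and 161 TPM under IgG and 179.8 and 186 TPM under H2O2, apart, with a difference of 0.24 that did not pass (adjusted p = 0.1083).

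**Figure D2:**
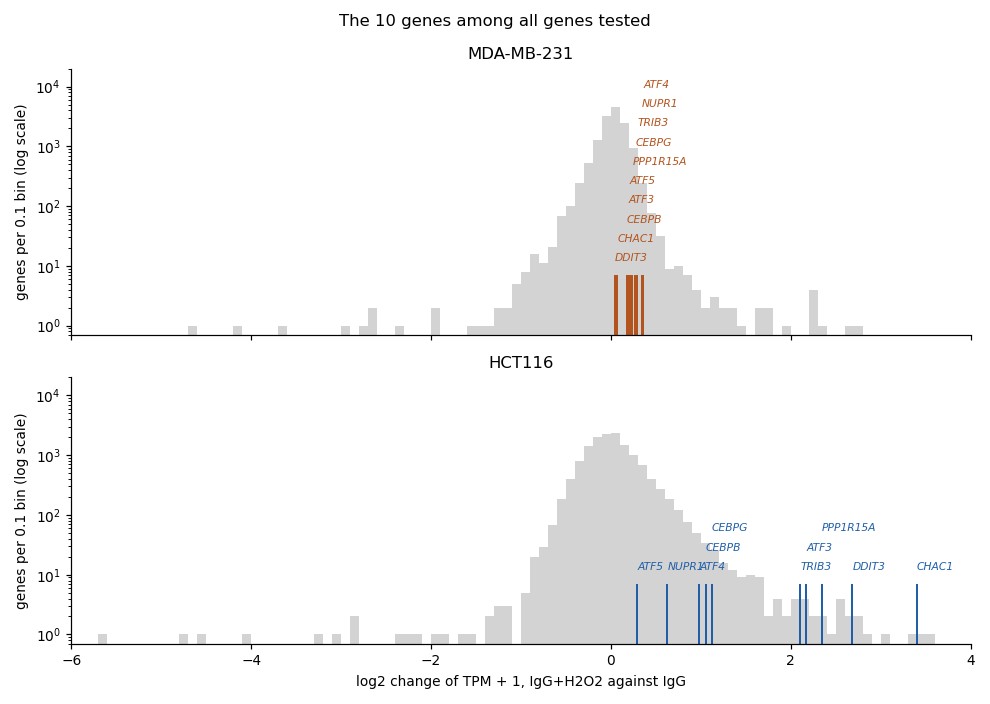
Distribution of the log2(TPM + 1) change with H2O2 over all 13956 genes kept (histogram, number of genes per bin on a logarithmic vertical axis), with the 10 members marked, in MDA-MB-231 and HCT116. In HCT116, CHAC1, DDIT3, PPP1R15A, ATF3 and TRIB3 lie in the far upper tail, at ranks 4 to 24, while in MDA-MB-231 all 10 lie between 0.04 and 0.36.

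The difference between lines was tested as an interaction, the H2O2 change in HCT116 minus that in MDA-MB-231. It was positive and passed for 8 of the 10 regulators, beside 7.65% of all genes with a higher and 9.72% with a lower change in HCT116. The differences were 3.33 for CHAC1 (SE 0.14, adjusted p = 2.131e-07), 2.64 for DDIT3, 2.1 for PPP1R15A, 1.97 for ATF3 and 1.81 for TRIB3. Smaller differences were found for CEBPB (0.87), CEBPG (0.85) and ATF4 (0.62, adjusted p = 0.0005491). The CEBPB difference (adjusted p = 0.01486) was lost without replicate 2 of MDA-MB-231 IgG (adjusted p = 0.05225) or replicate 1 of HCT116 H2O2 (adjusted p = 0.05536). For ATF5 the difference was 0.08 (95% interval -0.18 to 0.35) and for NUPR1 0.28 (95% interval -0.64 to 1.20), and neither passed. The ATF5 interval reaches past the ATF5 change of either line, so it does not show that the lines act alike.

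**Figure D3:**
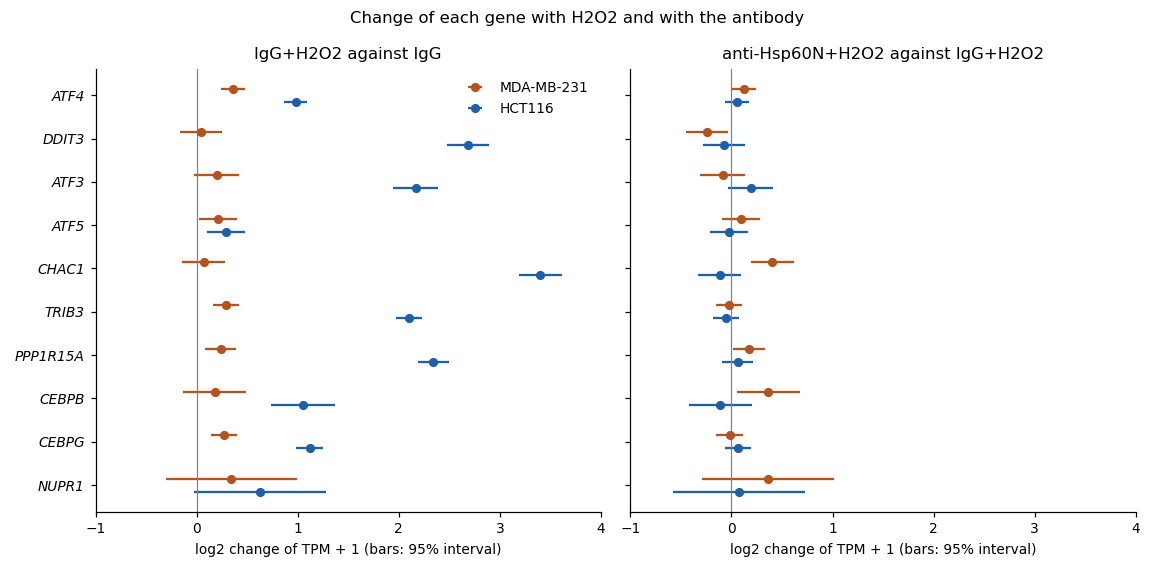
Log2(TPM + 1) change of each of the 10 genes with its 95% interval (horizontal axis), by line, for H2O2 against IgG and for anti-Hsp60N against IgG under H2O2. The H2O2 intervals of the lines lie apart for CHAC1, DDIT3, PPP1R15A, ATF3, TRIB3, CEBPG, CEBPB and ATF4, and overlap for ATF5 and NUPR1. The antibody changes lie between -0.24 and 0.40.

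Anti-Hsp60N with H2O2 was compared with IgG with H2O2 in each line. With limma, 0 of the 10 regulators passed in either line, where calls over all genes were 0.0143% higher and 0% lower in MDA-MB-231 and 0.00717% higher and 0.0143% lower in HCT116. In MDA-MB-231, 4 of the 10 were higher and 1 lower at an unadjusted p under 0.05, beside 4.59% and 8.52% of all genes. CHAC1 measured 11.1 and 10.0 TPM with the antibody against 7.31 and 8.14 TPM with IgG, without overlap, a difference of 0.40 (95% interval 0.19 to 0.62, unadjusted p = 0.001578, adjusted p = 0.2438). CEBPB measured 56.7 and 72.0 TPM against 48.8 and 50.2 TPM, a difference of 0.36 (unadjusted p = 0.0268). PPP1R15A measured 201 and 213 TPM against 179.8 and 186 TPM, a difference of 0.17 (unadjusted p = 0.03075), and ATF4 measured 433 and 423 TPM against 396 and 389.8 TPM, a difference of 0.12 (unadjusted p = 0.04248). DDIT3 was on the other side, at 41.8 and 35.4 TPM against 48.2 and 43.2 TPM, a difference of -0.24 (unadjusted p = 0.02757). The values of these 5 genes did not overlap between the antibody and IgG, but the 5 were picked by their p-values. The share of all genes without overlap was not computed, so a lack of overlap is a description only. ATF3, at 5.64 and 6.28 TPM against 6.34 and 6.43 TPM, did not overlap either, with a difference of -0.09 that did not pass. NUPR1 measured 22.6 and 21.6 TPM against 15.9 and 18.1 TPM, also without overlap, with a wide interval around its difference of 0.36 (-0.29 to 1.01). ATF5, TRIB3 and CEBPG overlapped between the groups.

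In HCT116 under H2O2, 0 of the 10 differed at an unadjusted p under 0.05 in either direction, beside 2.87% of genes higher and 2.29% lower. The differences ran from -0.12 for CHAC1 to 0.19 for ATF3. ATF3 measured 54.2 and 50.7 TPM with the antibody against 44.5 and 47.1 TPM with IgG, apart but short of the test (95% interval -0.03 to 0.41, unadjusted p = 0.08606). CHAC1 measured 66.2 and 72.9 TPM against 74.3 and 76.5 TPM, and CEBPG 66.1 and 66.7 TPM against 61.0 and 66.1 TPM, also without overlap. The other 7 genes overlapped, and here too the share of all genes without overlap was not computed. DDIT3, for example, stood at 163 and 187 TPM with the antibody and 185 and 182 TPM with IgG. TRIB3 stood at 155 and 173 TPM with the antibody and 170.2 and 169 TPM with IgG.

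The antibody differences of the lines were then compared with each other. As an interaction, HCT116 minus MDA-MB-231, 0 of the 10 passed with limma, beside 0.0143% of genes higher and 0.0143% lower. At an unadjusted p under 0.05, 0 were higher and 2 lower, beside 8.38% and 4.09% of genes. Those 2 were CHAC1 (-0.52, unadjusted p = 0.002957, adjusted p = 0.3476) and CEBPB (-0.47, unadjusted p = 0.03844). An antibody effect that needs no H2O2 and an altered response to H2O2 cannot be told apart in this design.

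Set against IgG alone, the libraries with anti-Hsp60N and H2O2 had 9 of the 10 regulators higher in HCT116 (16.8% of all genes were higher and 17.5% lower) and 5 higher in MDA-MB-231 (1.5% higher and 1.9% lower). These comparisons share the IgG libraries with those of H2O2 alone. In HCT116 the changes were 3.28 for CHAC1, 2.61 for DDIT3, 2.40 for PPP1R15A, 2.36 for ATF3, 2.05 for TRIB3, 1.18 for CEBPG, 1.04 for ATF4, 0.94 for CEBPB and 0.26 for ATF5. NUPR1 measured 1.98 and 1.59 TPM against 0.29 and 1.27 TPM, apart, with a difference of 0.70 that did not pass (adjusted p = 0.09064). The NUPR1 difference was 1.11 without replicate 2 of IgG, and over all 21 alternatives it ran from 0.29 to 1.36. The ATF5 call (adjusted p = 0.034) was lost in 6 of 21 alternative settings. Among them were no filter (adjusted p = 0.06166), the line fitted alone (0.06391) and no variance trend (0.05545). The call was also lost without replicate 2 of the antibody group (difference 0.18) or without replicate 1 (0.23) or 2 (0.30) of IgG. The genes higher in MDA-MB-231 were ATF4 (0.48, adjusted p = 0.0007021), CHAC1 (0.47, adjusted p = 0.02414), PPP1R15A (0.41, adjusted p = 0.00969), TRIB3 (0.27, adjusted p = 0.03403) and CEBPG (0.25, adjusted p = 0.04417). The CEBPG call was lost in 14 of 21 alternative settings and that of TRIB3 in 11. With the line fitted alone the calls of CHAC1 (adjusted p = 0.1441), PPP1R15A (0.06467), TRIB3 (0.09892) and CEBPG (0.09873) were lost. NUPR1 differed by 0.70, CEBPB by 0.54 and ATF5 by 0.31 without passing, and DDIT3 by -0.20 (adjusted p = 0.2865). CEBPB passed among genes with a mean of at least 5 TPM (adjusted p = 0.03845) and, like ATF5, without replicate 1 of the antibody group (CEBPB 0.71, adjusted p = 0.04955, and ATF5 0.44, adjusted p = 0.02896). Without replicate 2 of the MDA-MB-231 antibody group 1 of the 5 calls was left, that of ATF4.

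Under IgG, 5 of the 10 regulators were higher and 4 lower in HCT116 than in MDA-MB-231. These counts are near the shares over all genes, 45.5% higher and 37.3% lower, with a median difference of 0.11. TRIB3 (0.90), ATF3 (0.69), ATF4 (0.66), ATF5 (0.40) and CEBPG (0.19) were higher in HCT116. NUPR1 (-3.05), PPP1R15A (-1.67), CEBPB (-0.77) and DDIT3 (-0.66) were lower. CHAC1 differed by -0.20 (adjusted p = 0.07568). After median-of-ratios scaling, which moved the median over all genes to -0.013, CEBPG no longer passed (0.06, adjusted p = 0.4028) and CHAC1 was called lower in HCT116 (-0.31, adjusted p = 0.01719).

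The order of the 6 groups by level differed from gene to gene. For DDIT3 the lowest group was HCT116 under IgG, and both HCT116 groups under H2O2 lay above every MDA-MB-231 library. PPP1R15A had the same lowest and the same 2 highest groups, and its 3 MDA-MB-231 groups stood in between without overlap. CEBPB was also lowest in HCT116 under IgG, but its 4 H2O2 groups overlapped from each to the next in order. ATF4 and TRIB3 were lowest in MDA-MB-231 under IgG and highest in HCT116 under H2O2, where the groups with IgG and antibody overlapped. For NUPR1 the order was the other way, with all HCT116 libraries at 2.73 TPM or below and all MDA-MB-231 libraries at 12.7 TPM or above.

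Upstream of ATF4, the sensors of the response were not called higher in either line. The list held the eIF2 kinases EIF2AK1 (HRI), EIF2AK2 (PKR), EIF2AK3 (PERK) and EIF2AK4 (GCN2), and OMA1 and DELE1 (KIAA0141 in the table), which relay mitochondrial stress to HRI. In HCT116, 2 of the 6 fell with H2O2, where 17.5% of all genes fell. EIF2AK4 went from 42.3 ± 2.40 to 32.6 ± 0.205 TPM (SD, n = 2), a change of -0.37 (adjusted p = 0.001965), and EIF2AK1 from 103 ± 1.28 to 92.0 ± 5.43 TPM, a change of -0.16 (adjusted p = 0.04673). EIF2AK2 (-0.24, adjusted p = 0.05783), EIF2AK3 (0.12), OMA1 (-0.07) and KIAA0141 (-0.03) did not pass. With anti-Hsp60N and H2O2 against the same IgG libraries, EIF2AK4 alone of the 6 passed (-0.37, adjusted p = 0.001697). EIF2AK1 did not pass there (-0.11, adjusted p = 0.1589). A list of 6 genes is too small for its counts to be set apart from the shares over all genes. In MDA-MB-231, 0 of the 6 passed with limma and 0 had an unadjusted p under 0.05, with changes from -0.07 for EIF2AK4 to 0.14 for OMA1. The interaction passed for EIF2AK4 alone of the 6 (-0.30, adjusted p = 0.04879).

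Of 15 genes of the eIF2 machinery and its phosphatases, 1 rose and 6 fell with H2O2 in HCT116, beside 15.4% and 17.5% of all genes, and 1 rose in MDA-MB-231, beside 1.3%. PPP1R15B, the constitutive partner of PPP1R15A, rose from 47.8 ± 1.98 to 57.5 ± 0.226 TPM in HCT116 (0.26, adjusted p = 0.005823). The exchange factor subunits EIF2B4 (-0.45, adjusted p = 0.000267) and EIF2B1 (-0.34, adjusted p = 0.004588) and the phosphatase catalytic subunit PPP1CA (-0.19, adjusted p = 0.005791) fell there. In MDA-MB-231 the gene that rose was EIF2S3, the gamma subunit of eIF2 (0.20, adjusted p = 0.04604). Among 6 kept paralogs of the members, PPP1R15B and TRIB1 (0.20, adjusted p = 0.01766) rose and TRIB2 fell (-0.40, adjusted p = 0.005584) in HCT116. In MDA-MB-231 0 of the 6 passed, and 1 was higher at an unadjusted p under 0.05, beside 10.6% of all genes. With 6 genes, the paralog counts are too small to be set apart from the shares over all genes. The rise of PPP1R15B was thus small beside the 2.34 of PPP1R15A, and that of TRIB1 beside the 2.1 of TRIB3.

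Known targets of ATF4 and CHOP, a list of 33 genes, rose in HCT116 for the most part. Of 31 kept, 27 rose and 0 fell in HCT116 (median 0.79), beside 15.4% and 17.5% of all genes. In MDA-MB-231, 8 rose and 0 fell (median 0.16), beside 1.3% and 1.36%. In HCT116, SESN2, an inhibitor of mTORC1 signalling, went from 13.3 ± 0.778 to 95.9 ± 1.08 TPM (2.76, adjusted p = 7.76e-09). TNFRSF10B, the TRAIL receptor DR5, went from 70.3 ± 3.07 to 213 ± 4.42 TPM (1.59, adjusted p = 1.058e-08), and ASNS, asparagine synthetase, from 168 ± 2.2 to 372 ± 5.03 TPM (1.14, adjusted p = 5.043e-08). The named genes in MDA-MB-231 were AARS, the alanyl-tRNA synthetase (0.37, adjusted p = 0.0006318), the cystine transporter SLC7A11 (0.70, adjusted p = 0.001642) and the glutamine transporter SLC1A5 (0.31, adjusted p = 0.002185). SLC7A11 went from 7.80 ± 1.10 to 13.3 ± 0.311 TPM. The interaction passed for 25 of the 31 with a higher change in HCT116 and for 0 with a lower, beside 7.65% and 9.72% of all genes. Several of these genes also answer to other factors, such as p53 for SESN2 and TNFRSF10B and NRF2 for SLC7A11.

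Other bZIP factors rose or did not pass in HCT116, while targets of ATF6 and XBP1 passed in both directions. Of 27 other bZIP genes, 15 rose and 0 fell in HCT116 (median 0.31), beside 15.4% and 17.5% of all genes, led by p-value by MAFF (1.70, adjusted p = 1.183e-07), FOSL1 (0.85, adjusted p = 2.049e-06) and XBP1 (0.81, adjusted p = 2.737e-05). In MDA-MB-231 0 of the 27 passed with limma, and 3 were higher at an unadjusted p under 0.05, near the 10.6% of all genes. Of 13 targets of ATF6 and XBP1, 4 rose and 6 fell in HCT116 (median -0.15), beside 15.4% and 17.5% of all genes. In MDA-MB-231 0 of the 13 passed, and 1 was higher at an unadjusted p under 0.05, beside 10.6% of all genes. The chaperone gene HSPA5 (0.54, adjusted p = 2.152e-05), HERPUD1 (0.78, adjusted p = 6.276e-05) and DNAJB9 (0.79, adjusted p = 0.0006958) rose, while PDIA4 (-0.41, adjusted p = 4.339e-05), SDF2L1 (-0.89, adjusted p = 0.0002326) and CALR (-0.40, adjusted p = 0.000289), also of protein folding in the endoplasmic reticulum, fell. With the antibody under H2O2, 0 genes of any of these 6 lists passed in either line with limma. At an unadjusted p under 0.05 in MDA-MB-231, 3 targets of ATF4 and CHOP and 3 other bZIP genes were higher, and 2 such targets, 1 gene of the eIF2 machinery and 3 targets of ATF6 and XBP1 were lower, beside 4.59% of all genes higher and 8.52% lower. In HCT116, 3 other bZIP genes and 1 target of ATF4 and CHOP were higher, beside 2.87% of all genes. Several of these counts are near the shares over all genes.

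**Figure D4:**
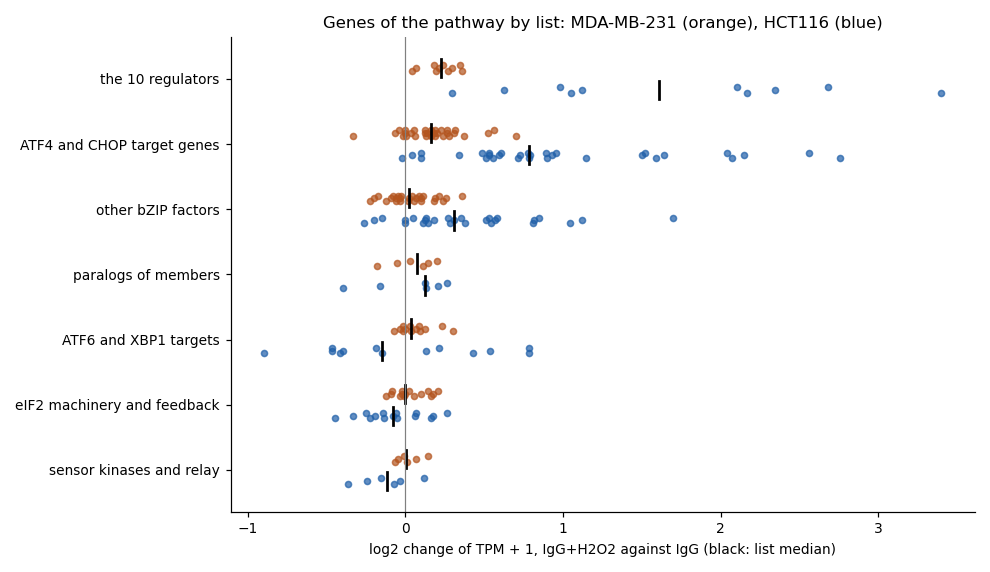
Log2(TPM + 1) change with H2O2 of every kept gene of the 10 members and of the 6 other lists, in MDA-MB-231 and HCT116. Points are genes and the bar in each list is its median. By median, the members and the targets of ATF4 and CHOP lie highest in HCT116, at 1.61 and 0.79. The sensors lie at -0.37 to 0.12 there. The eIF2 machinery (to -0.45) and the targets of ATF6 and XBP1 (to -0.89) reach lower than the sensors.

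The genes with the pattern most like each member were taken by the root mean square distance over the 6 group means, each centred on its line, for the 8 members whose centred means spanned at least 1 on the log2 scale. This likeness is a description over 6 points that share libraries. SESN2 (distance 0.235) and IL8 (0.294) lay nearest to CHAC1, and SESN2 lay 0.133 from DDIT3. SLFN5 (0.068) and LAMB3 (0.083) lay nearest to ATF3, DUSP5 (0.056) and MXD1 (0.068) to TRIB3, and STC2 (0.1) and UPP1 (0.109) to PPP1R15A. For ATF4 they were SLC25A45 (0.046) and CXCL3 (0.048), for CEBPG VEGFA (0.028) and IL20RB (0.032), and for CEBPB AOC2 (0.061) and ZDHHC11 (0.061). VEGFA, for example, went from 28.7 to 63.1 TPM with H2O2 in HCT116, and CEBPG from 28.7 to 63.5 TPM. Among the members themselves, the shortest distance was that between ATF4 and CEBPG (0.082), followed by CEBPB and ATF4 (0.087). CHAC1 lay 0.319 from DDIT3, its nearest. The distances are not scaled to the size of the changes. The centred means of CHAC1 spanned 3.4, those of ATF4 1.04 and those of CEBPG 1.18, so these distances do not rank likeness of shape.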

How the data were processed

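RNA sequencing of 12 libraries was deposited by the authors as TPM per gene in 1 table of 23686 genes. Tools and build named by the submitters' processing notes, without roles, are bcl2fastq 2.20, STAR, RSEM and hg19. Not given in the sources used here are the versions of STAR and RSEM, the gene annotation and the strand setting. TPM from RSEM divides reads that fit several genes by estimation, so levels of genes with close copies are uncertain. TPM keeps no depth. All columns matched a library by its label.

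From the deposited TPM, log2(TPM + 1) was computed, so a fold change understates the change of low genes. Genes with at least 1 TPM in at least 2 libraries were kept (13956). limma 3.58.1 (R 4.3.3) was fitted on 6 group means with a variance trend (6 residual and 4.63 prior degrees of freedom), two-sided, for 9 comparisons, with p-values adjusted by Benjamini-Hochberg over the kept genes within each. The script was tested on simulated data. Alternatives were the pseudocount, the filter, the scaling, each line alone, no variance trend, a replicate block and each library left out. Named were all members, every sensor, up to 3 genes per direction of smallest p in each other list and, for 8 members, the 2 nearest genes; some genes so named are not reported here. The members and lists were chosen with earlier results of these data known. Some list genes stand in the table under older symbols, matched through RefSeq synonyms. Promoter windows are RefSeq's, on GRCh38.p14, and exons are those of GENCODE; no coordinates of the authors' build were used. Python 3.11.15 with matplotlib 3.10.9 made the plots.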

Additional observations from a re-analysis of the deposited data

Results flagged for a closer look

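The H2O2 change differed between the lines, by the interaction test of the difference itself, for 8 of the 10 regulators. On the log2(TPM + 1) scale the change in HCT116 minus that in MDA-MB-231 was 3.33 for CHAC1, 2.64 for DDIT3, 2.1 for PPP1R15A, 1.97 for ATF3, 1.81 for TRIB3, 0.87 for CEBPB, 0.85 for CEBPG and 0.62 for ATF4. All 8 had the higher change in HCT116. The lines also differ in their medium, and the part of the medium was not tested. Groups of 2 libraries were too small for a check of single outlying libraries.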

How the results depend on the processing

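Every member change was recomputed under 20 to 22 alternatives per comparison. The 43 called changes gave 895 alternative values, of which 830 kept direction and call, 65 lost the call and 0 changed sign. Over all 90 member results 24 of 1870 values changed sign, all of changes that had not passed, and 11 gained a call. The number of members called with H2O2 in MDA-MB-231, 3, became 1 with each line fitted alone, 1 without the variance trend and 1 with the replicate block, and ran from 0 to 3 with single libraries left out. It was 0 without replicate 1 of H2O2, and 1 without replicate 2 of H2O2 or either replicate of IgG. For the antibody with H2O2 against IgG in MDA-MB-231 the 5 became 3 with no filter, 1 with the line fitted alone, 3 without the trend and 3 with the block, and ran from 1 to 5 with single libraries left out. It was 2 without either IgG library, 3 without either library of IgG with H2O2 and 1 without replicate 2 of the antibody group. The other counts were 8 to 10 for both HCT116 comparisons with IgG, 7 to 8 for the interaction of line and H2O2, 8 to 10 for the lines under IgG and 0 throughout for the antibody under H2O2. Over all genes the 371 calls with H2O2 in MDA-MB-231 ranged from 86 with the line fitted alone to 443, and the 4592 in HCT116 from 3002 without replicate 2 of H2O2 to 4792. The causes were not tested. Because TPM keeps no depth, what depth limits could not be given, and each line fitted alone gives no value for comparisons across lines.

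Replicate numbers were not taken as pairs. With the replicate block the H2O2 calls of TRIB3 (adjusted p = 0.05581) and CEBPG (adjusted p = 0.07704) in MDA-MB-231 were lost. Deviations of same-numbered libraries correlated at 0.012 to 0.164 in MDA-MB-231 and -0.127 to 0.0552 in HCT116, where the lowest was for IgG and H2O2. The replicate block left 9 members called and 4396 genes with H2O2 in HCT116, and the crossed pairing, chosen after seeing the data, 9 members and 4731 genes.

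Small changes that had not passed and changed sign were, with the antibody under H2O2 in MDA-MB-231, TRIB3 (0.0035 after quantile normalization) and CEBPG (0.0041 after median-of-ratios scaling, 0.016 after quantile normalization). With single libraries left out, the H2O2 change in MDA-MB-231 ran from -0.035 to 0.12 for DDIT3 and from -0.054 to 0.19 for CHAC1. The antibody change in MDA-MB-231 ran from -0.029 to 0.23 for ATF5, -0.057 to 0.0067 for TRIB3 and -0.054 to 0.019 for CEBPG. In HCT116 it ran from -0.17 to 0.023 for DDIT3, -0.11 to 0.053 for ATF5, -0.13 to 0.032 for TRIB3, -0.015 to 0.14 for PPP1R15A, -0.29 to 0.070 for CEBPB and -0.43 to 0.57 for NUPR1. For ATF3, the antibody with H2O2 against IgG in MDA-MB-231 ran from -0.046 to 0.27. The difference between lines ran from -0.22 to 0.78 for the H2O2 change of NUPR1, and for the antibody change from -0.26 to 0.00051 for ATF5, -0.11 to 0.057 for TRIB3 and -0.78 to 0.21 for NUPR1.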
